A study of Canis lupus familiaris with 6 samples.

Results

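The 10 transcripts described here report on the ERK branch of receptor signalling and were followed across RNA sequencing libraries of canine melanoma cells. They are DUSP4, DUSP5, DUSP6, SPRY2, SPRY4, SPRED1, ETV1, ETV4, ETV5 and CCND1. The deposited tables list 30951 genes, and each of the 10 members has a single row carrying its symbol. All 10 were among the 12270 genes with enough counts to be tested. The members were chosen by their measured differences between knockout and control cells in these libraries, so those differences are given below as a description. Where the fit over all genes called members on that contrast, the count is printed beside the share of all genes and supports nothing. The comparison of the cell lines over all 6 libraries and that of the knockout numbers did not choose them and were tested. These tests use the same libraries, and earlier results of these data were known when the members were chosen.

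The material was CMM2 and CMM12, both labelled as canine melanoma, with 6 libraries in all. Each line had 1 control library of genotype WT and 2 podoplanin knockout (KO) libraries, numbered KO 1 and KO 2. Podoplanin is a membrane glycoprotein of lymphatic endothelium and of many tumours. No drug or time point is named in the labels, and the control treatment, the way the gene was disrupted and whether a KO line is 1 clone are not given in the sources used here. Nothing states that libraries came from separate cultures, so errors and p-values cover only the scatter of these libraries, be it technical or between clones.

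As background, growth factor receptors load RAS with GTP, RAS activates RAF, RAF phosphorylates MEK, and MEK phosphorylates ERK. Active ERK switches on genes whose products then restrain the same cascade, which makes their messenger levels a common readout of pathway output in melanoma. The members fall into these roles. DUSP4, DUSP5 and DUSP6 encode dual-specificity phosphatases that remove the activating phosphates of ERK, in the nucleus for DUSP4 and DUSP5 and in the cytoplasm for DUSP6. SPRY2, SPRY4 and SPRED1 encode inhibitors that act between receptors and RAF, and SPRED1 works by bringing the RAS-inactivating protein neurofibromin to the membrane. ETV1, ETV4 and ETV5 encode the PEA3 group of ETS transcription factors, and CCND1 encodes cyclin D1, the partner of CDK4 and CDK6 in G1.

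The libraries held 9732927 to 11807835 counts. The targeted transcript, PDPN, stood at 20.2 CPM in the CMM2 control against 5.59 and 5.58 in its KO libraries, and at 87.8, 15.2 and 9.98 CPM in the CMM12 control, KO 1 and KO 2. CPM is a count scaled to library size. CMM2 KO 2 stood apart in its line: among 8660 well-expressed genes (mean CPM of at least 10), 6.82% differed at least 2-fold from the CMM2 control, against 1.26% for CMM2 KO 1. In CMM12 the shares were 4.85% for KO 1 and 4.76% for KO 2. The label of the cells was only weakly borne out by the 8 melanocyte markers, which summed to 13.8 to 24.5 TPM. PMEL had counts in every library. MITF was present at 15.4 to 28.4 CPM, but DCT was at 0 in every library, SOX10, TYR, MLANA and S100B had at most 1 count in any library, and TYRP1 was at 0 in CMM2 and at 3.71 to 6.07 CPM in CMM12. Of the markers of other cells, PTPRC and CD3E were at 0 in all libraries, while a row named CD79A, another leukocyte marker, held 3150 to 4542 TPM (a transcript level scaled for gene length and library size). Whether the reads of that row come from CD79A cannot be told from gene-level tables. Of the other leukocyte markers listed, CD68 had counts in every library, and ITGAM had counts in CMM12 KO 1 only. The 4 epithelial markers listed (of 6) summed to 0 TPM in CMM2, and in CMM12 to 15.0 TPM in the control, 1.45 in KO 1 and 2.69 in KO 2. The 4 endothelial markers summed to 0.83 to 2.42 TPM. The 7 fibroblast markers, 3 of them collagens, summed to 324 TPM in the CMM2 control, 763 in KO 1 and 2740 in KO 2, and to 2290, 939 and 1650 TPM in the CMM12 control, KO 1 and KO 2, with DCN at 0 in 3 libraries and THY1 at 0 in all of CMM2. The part of these marker differences in the results below was not tested, and in bulk libraries fewer cells of a type and less RNA per cell cannot be told apart.

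On the TPM scale, which allows levels of different genes to be set side by side, cyclin D1 was the most abundant member in both lines. CCND1 averaged 144 ± 16.9 TPM in CMM2 and 175 ± 57.8 TPM in CMM12 (SD, n = 3 libraries, the control and both KO libraries). SPRY2 and DUSP6 were also among the more abundant, with 64.8 ± 32.5 and 53.1 ± 2.7 TPM in CMM2 and 101 ± 17.5 and 102 ± 47.9 TPM in CMM12. ETV1 averaged 57.3 ± 14.3 and 50.1 ± 22.3 TPM. DUSP5, SPRY4 and ETV4 had means of 25.0 to 47.5 TPM over both lines and held the middle of the order in CMM2. In CMM12 the means of DUSP5 and SPRY4 were below that of DUSP4. DUSP4 and ETV5 were low in CMM2, at 6.83 ± 5.05 and 6.80 ± 1.87 TPM, and higher in CMM12, at 36.7 ± 12.8 and 17.8 ± 2.58 TPM. SPRED1 was barely detected in CMM2, at 0.490 ± 0.123 TPM, and reached 19.1 ± 8.35 TPM in CMM12. Much of this order is not resolved, because the ranges of neighbouring genes overlapped for 6 of 9 neighbouring pairs in CMM2 and for 8 of 9 in CMM12. The gaps with no overlap in CMM2 were those below CCND1, below ETV4 and above SPRED1, and in CMM12 the one between SPRY2 and ETV1. The length used for TPM is that of the gene model, and for 5 of the 6 members with 1 transcript it is a multiple of 3 (45.1% of all such genes), as for a model without untranslated regions. Levels between genes therefore also carry the completeness of their models.

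**Figure D1:**
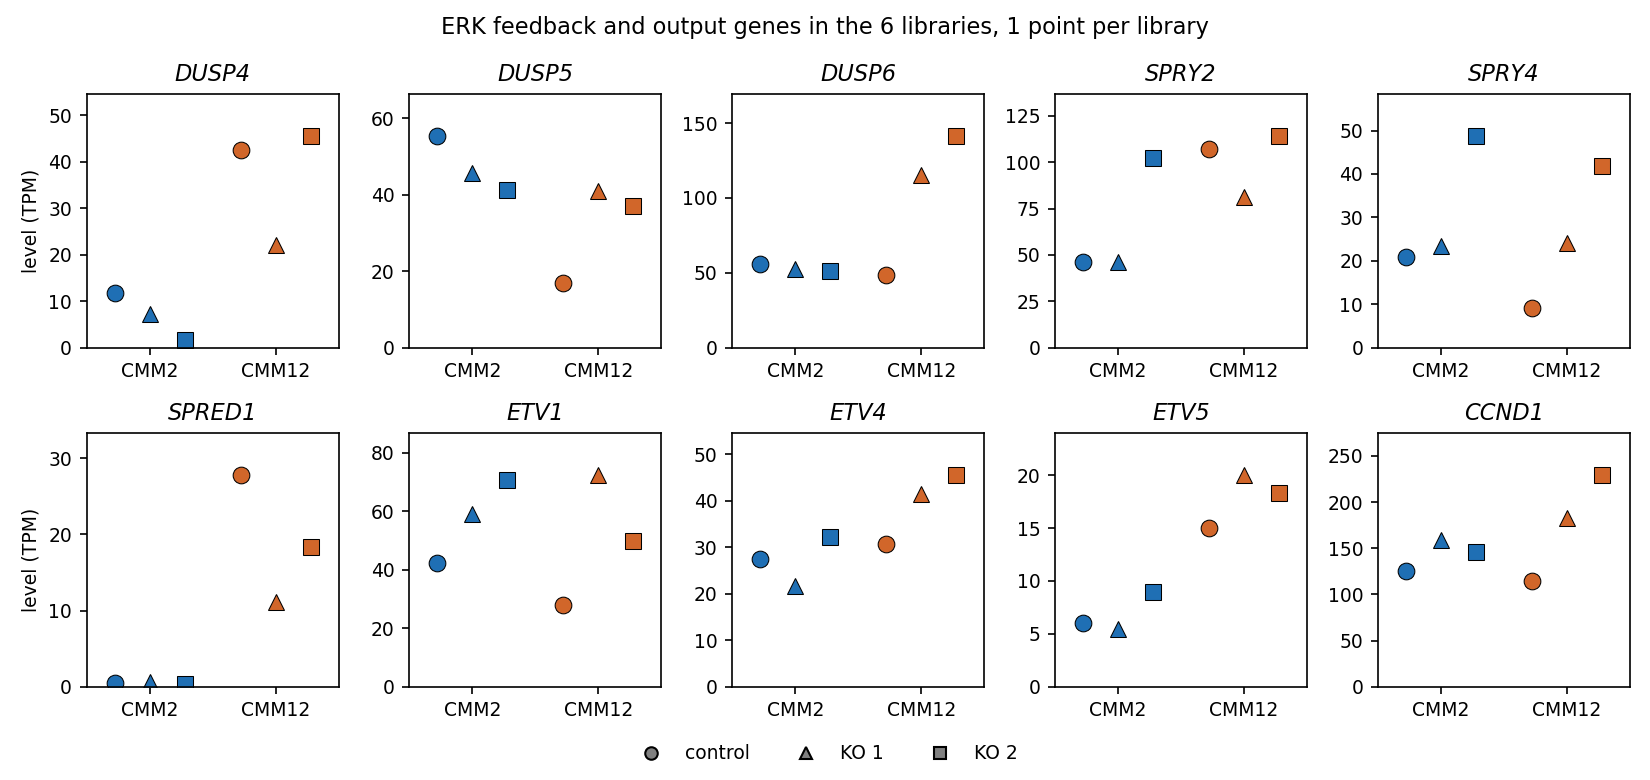
Level of each member in TPM (vertical axis from 0, own scale per gene) in the 3 libraries of CMM2 (blue) and the 3 of CMM12 (orange), with circles for controls, triangles for KO 1 and squares for KO 2. CCND1 is highest, SPRED1 is near 0 in all CMM2 libraries, and for DUSP6 the 2 CMM12 KO libraries (115.49 and 141.51 TPM) lie above all others.

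Knockout and control cells were then set against each other within each line, the question being whether output genes of ERK moved with loss of podoplanin. Among the phosphatases, DUSP6 and DUSP5 were above the control in both KO libraries of CMM12 and below it in both of CMM2. DUSP6 stood at 37.6 CPM in the CMM12 control, 97.0 in KO 1 and 109 in KO 2, and at 49.4, 45.6 and 43.6 CPM in the CMM2 control, KO 1 and KO 2. Both CMM12 KO libraries were thus at 2.58-fold and 2.89-fold of their control. Those of CMM2 were at 0.924-fold (95% counting interval 0.817 to 1.05) and 0.883-fold (0.778 to 1) of theirs. Both CMM2 intervals reach 1, so a difference of DUSP6 in CMM2 is not resolved. The fitted log2 change was 1.45 (SE 0.26) in CMM12 and −0.15 (SE 0.24) in CMM2. DUSP5 stood at 12.9 CPM in the CMM12 control and at 33.7 and 28.1 in its KO libraries, against 47.9, 39.2 and 34.7 CPM in CMM2. Its log2 change was 1.26 (SE 0.31) in CMM12 and −0.37 (SE 0.29) in CMM2. In CMM12 the control was the lowest library for DUSP5, and in CMM2 it was the highest.

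DUSP4, the other nuclear phosphatase, had another pattern. It stood at 16.8 CPM in the CMM2 control, 10.1 in KO 1 and 2.27 in KO 2, that is 176, 116 and 24 counts. Both CMM2 KO libraries were lower, at 0.603-fold (95% counting interval 0.473 to 0.767) and 0.135-fold (0.0843 to 0.208) of the control, and the larger difference lay in the library that stood apart. In CMM12 DUSP4 was at 53.6 CPM in the control, 30.2 in KO 1 and 56.9 in KO 2, so the KO libraries lay on either side of the control. The log2 change was −1.43 (SE 0.76) in CMM2 and −0.30 (SE 0.74) in CMM12.

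Of the inhibitors between receptor and RAF, SPRY4 was higher than its control in all 4 KO libraries. It stood at 5.44 CPM in the CMM12 control, 15.8 in KO 1 and 25.1 in KO 2, and at 14.2, 15.9 and 32.5 CPM in the CMM2 control, KO 1 and KO 2. The CMM2 KO 1 value was 1.12-fold of its control, and the other 3 KO libraries were between 2.28-fold and 4.61-fold of theirs. The log2 change was 1.91 (SE 0.57) in CMM12 and 0.76 (SE 0.53) in CMM2. SPRY2, the closely related inhibitor, was at 62.7 CPM in the CMM12 control, 51.4 in KO 1 and 66.6 in KO 2. In CMM2 it was at 30.6 CPM in the control, 30.5 in KO 1 and 66.3 in KO 2. The largest difference from a control for SPRY2 was that of CMM2 KO 2, at 2.17-fold (counting interval 1.9 to 2.49). CMM12 KO 1 was lower than its control, at 0.82-fold (0.733 to 0.916). The intervals of CMM2 KO 1 (0.855 to 1.17) and CMM12 KO 2 (0.954 to 1.18) included 1. The log2 ratio of CMM2 KO 1 to the control changes sign with the scaling, 0.00 by CPM and 0.01 by TPM.

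SPRED1 was lower than the control in both CMM12 KO libraries. It stood at 55.2 CPM in the CMM12 control, 24 in KO 1 and 36.0 in KO 2, or 43.4% and 65.2% of the control, with a log2 change of −0.88 (SE 0.38). In CMM2 it was counted 10 times in the control, 16 times in KO 1 and 9 times in KO 2. At that depth the ratios of KO to control, 1.46 (95% counting interval 0.625 to 3.61) and 0.892 (0.321 to 2.44), do not resolve a difference. Without the CMM12 control the change across lines, otherwise −0.53 (SE 0.35), is the CMM2 value of 0.24.

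Of the PEA3 factors, ETV1 was above its control in all 4 KO libraries. ETV1 stood at 35.5 CPM in the CMM12 control, 98.7 in KO 1 and 62.6 in KO 2, and at 59.0, 79.6 and 97.9 CPM in the CMM2 control, KO 1 and KO 2. The control was the lowest library of each line, with a log2 change of 1.19 (SE 0.35) in CMM12 and 0.59 (SE 0.34) in CMM2. ETV4 was at 39.4 CPM in the CMM12 control and at 58.1 in both KO libraries (log2 change 0.56, SE 0.31), and at 41.3, 32.4 and 46.3 CPM in CMM2 (−0.07, SE 0.31). ETV5 was at 26.1 CPM in the CMM12 control, 38.0 in KO 1 and 31.7 in KO 2 (0.42, SE 0.39), and at 12, 10.7 and 17.3 CPM in CMM2 (0.22, SE 0.40). For ETV4 and ETV5 both CMM12 KO libraries lay above the control and the CMM2 KO libraries lay on either side of it.

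CCND1 stood at 94.2 CPM in the CMM12 control, 163 in KO 1 and 187 in KO 2. In CMM2 it was at 117 CPM in the control, 149 in KO 1 and 133 in KO 2. Cyclin D1 messenger was thus lowest in the control of each line, with log2 changes of 0.89 (SE 0.25) in CMM12 and 0.27 (SE 0.24) in CMM2.

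**Figure D2:**
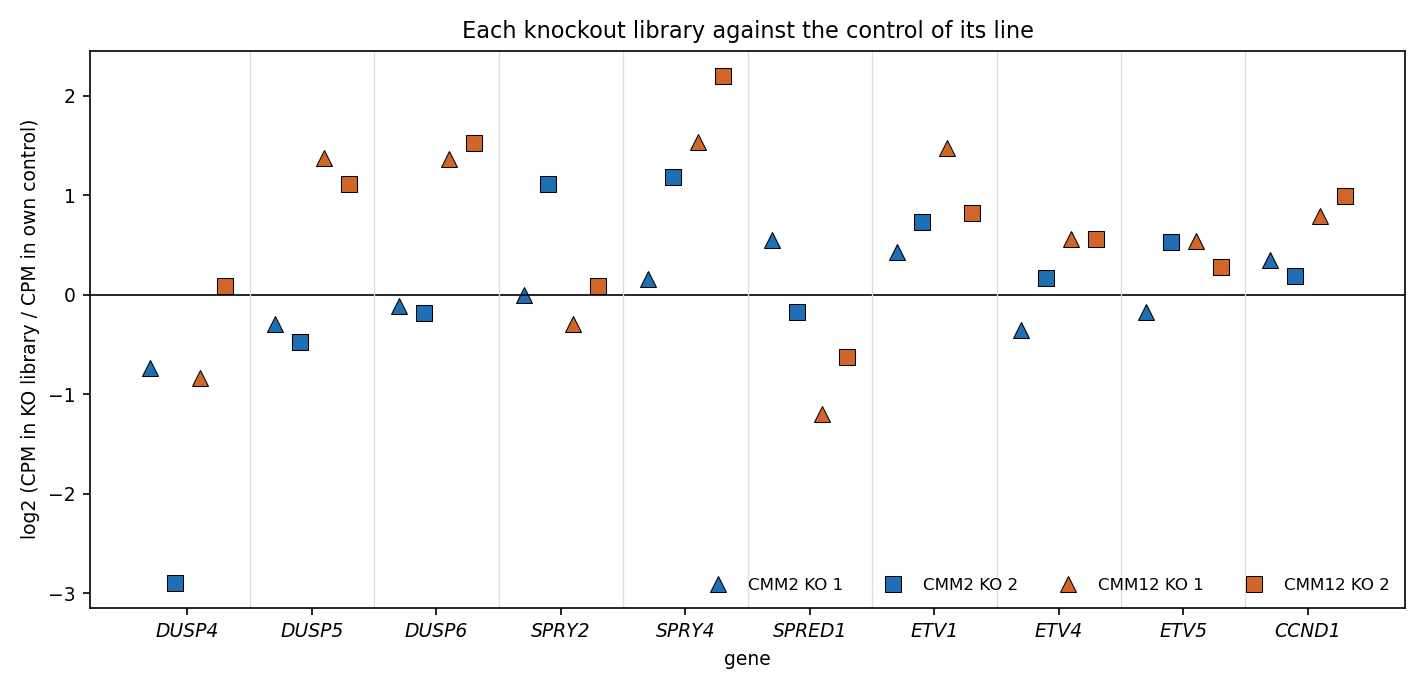
Log2 ratio of the CPM of each KO library to that of the control of its own line (vertical axis) for the 10 members (horizontal axis), CMM2 in blue, CMM12 in orange, triangles for KO 1 and squares for KO 2, 1 library per point and no error bars. The CMM12 points of DUSP5 and DUSP6 lie above 0 and their CMM2 points below, SPRY4, ETV1 and CCND1 lie above 0 in all 4 libraries, and DUSP4 in CMM2 KO 2 is at −2.89.

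Counted over the list, both CMM12 KO libraries were above their control for 7 of the 10 members, where 35.6% of all tested genes were, and below it for 1 member, SPRED1, where 34.2% of genes were (6.85% at least 1.5-fold below, again SPRED1). At least 1.5-fold above it in both were 5 members (7.98% of genes), which were DUSP5, DUSP6, SPRY4, ETV1 and CCND1. In CMM2 both KO libraries were above the control for 3 members (30.1% of genes) and below it for 3 (30.9% of genes), with none at least 1.5-fold above (5.06%) and 1, DUSP4, at least 1.5-fold below (2.73%). All 4 KO libraries were above their own control for SPRY4, ETV1 and CCND1, 3 of 10 members against 10.5% of genes, and below it for none (10.6%). CMM12 above and CMM2 below was seen for DUSP5 and DUSP6 (11% of genes), and the reverse for none (10.2%). The KO libraries of a line share its single control, so each pair rests on that library, and since this contrast chose the members nothing is read from these shares. The median log2 change of the members was 0.73 in CMM12 and 0.23 in CMM2, beside 0.02 and 0.00 over all tested genes, and without CMM2 KO 2 the CMM2 median was −0.06.

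The calls of the fit over all genes follow for completeness, since the same contrast chose the members and the counts of members are no evidence about them. The quasi-likelihood test of edgeR called no member for KO against control, across lines (0% of 12270 genes called), in CMM2 (0%) or in CMM12 (0.00815%, 1 gene). At an unadjusted p under 0.05 there were 3 members across lines (495 genes, 4.03%), none in CMM2 (233 genes, 1.90%) and 5 in CMM12 (735 genes, 5.99%). DESeq2 called no member across lines (9 genes, 0.0733%) or in CMM2 (6 genes, 0.0489%) and 1 in CMM12, DUSP6 (45 genes, 0.367%). For the difference of the KO effects between the lines edgeR called 0 genes (0%, with 471 genes or 3.84% and 2 members at an unadjusted p under 0.05), and DESeq2 called 22 genes (0.179%) and no member.

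The lines themselves were compared with all 6 libraries and a term for genotype, a contrast that asks which members mark one line against the other. SPRED1, ETV5 and DUSP4 were higher in CMM12. SPRED1 was 33.9-fold higher in CMM12 (log2 5.08, SE 0.37, edgeR adjusted p 0.000451, 3 libraries per line), with 0.851 to 1.40 CPM in CMM2 and 24 to 36.0 CPM in the CMM12 KO libraries and 55.2 in the control. With libraries of the same kind set side by side, the ratio of CMM12 to CMM2 was 57.8 for the controls, 17.2 for KO 1 and 42.3 for KO 2. ETV5 was 2.38-fold higher (log2 1.25, SE 0.24, edgeR adjusted p 0.0109), from 10.7 to 17.3 CPM in CMM2 to 26.1 to 38.0 CPM in CMM12. DUSP4 was 5.33-fold higher (log2 2.41, SE 0.55, edgeR adjusted p 0.0181), from 2.27 to 16.8 CPM to 30.2 to 56.9 CPM. The ratio of CMM12 to CMM2 for DUSP4 was 3.19 for the controls, 2.98 for KO 1 and 25 for KO 2, the last against the CMM2 library that stood apart. Without that library the log2 difference was 1.91 (edgeR adjusted p 0.00956). Without CMM12 KO 2 the DUSP4 difference was 2.02 and was no longer called (edgeR adjusted p 0.0625).

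The other 7 members were not called between the lines. CCND1 had the smallest estimate (log2 0.11, SE 0.18), and ETV4 (0.35, SE 0.22) and ETV1 (−0.33, SE 0.23) had overlapping libraries. DUSP5 (−0.78, SE 0.34, edgeR adjusted p 0.131) had every CMM12 library below every CMM2 library, and SPRY4 (−0.60, SE 0.38) and SPRY2 (0.53, SE 0.32) had overlapping libraries. Without CMM2 KO 2 the SPRY2 difference was 0.99 and passed the threshold, which is likewise only a description. DUSP6 (0.69, SE 0.32, edgeR adjusted p 0.152) depended on the controls. The CMM12 control had 0.762-fold the CPM of the CMM2 control, whereas the KO libraries of CMM12 had 2.13-fold and 2.49-fold that of the CMM2 KO library with the same number. With the 4 KO libraries alone the log2 difference of DUSP6 was 1.21 (SE 0.19), and it was 1.2 without the CMM2 control and 1.21 without the CMM12 control. These values pass the threshold, but they rest on the KO libraries whose distance from the controls chose DUSP6, so they are a description and no test.

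**Figure D3:**
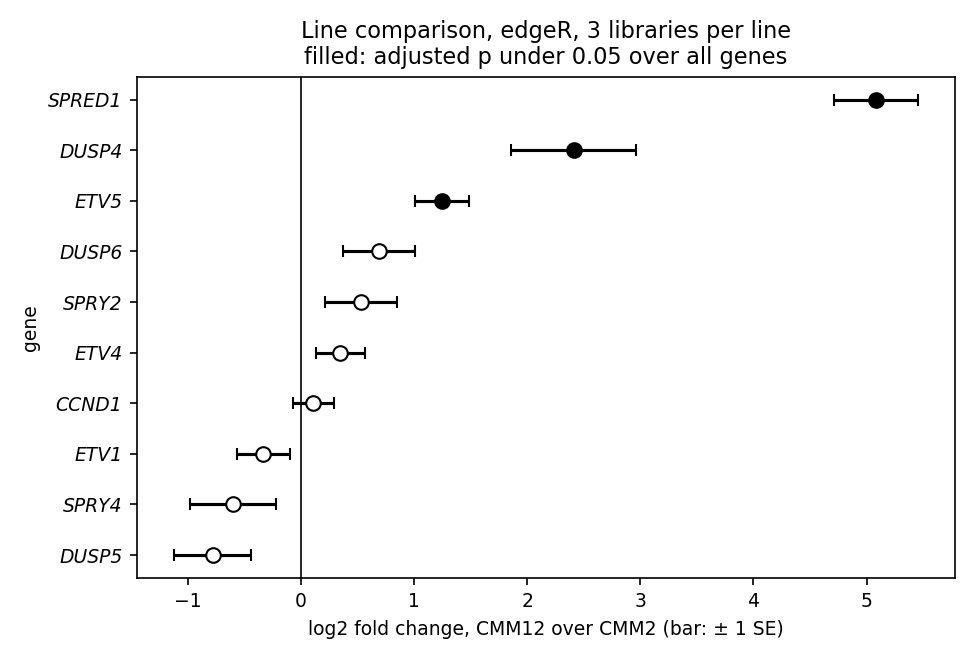
Log2 fold change of CMM12 over CMM2 (horizontal axis) for each member, from edgeR on 3 libraries per line with a term for genotype, with bars of 1 standard error and filled points for an adjusted p under 0.05. SPRED1 (5.08), DUSP4 (2.41) and ETV5 (1.25) are filled, and the other 7 lie between −0.78 and 0.69.

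In all, 3 of 10 members were called higher in CMM12, where 14.6% of tested genes were, and 0 lower, where 11.2% were. In either direction that is 3 of 10 against 25.8% of genes, a share near the background (also 3 of 10 against 40% at an unadjusted p under 0.05). DESeq2 called the same count of members, 3, with 32.2% of genes. Libraries of the lines did not overlap for 3 members higher in CMM12 (24.6% of genes) and 1 lower (21.5%).

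KO 2 was also set against KO 1 over both lines, in a model with the line and the number. No member was called by edgeR (0% of genes, with 560 genes or 4.56% and 1 member at an unadjusted p under 0.05) or by DESeq2 (27 genes, 0.220%). The Sprouty genes had the largest differences among the members. SPRY4 was higher in KO 2 by 0.83 (SE 0.37, edgeR adjusted p 0.943), at 2.04-fold of KO 1 in CMM2 and 1.59-fold in CMM12. SPRY2 was higher by 0.77 (SE 0.29, edgeR adjusted p 0.943), at 2.17-fold and 1.29-fold. DUSP4 went opposite ways, with KO 2 at 0.224-fold of KO 1 in CMM2 and 1.88-fold in CMM12. SPRED1 did as well (0.609-fold, on 9 and 16 counts, and 1.5-fold), as did ETV1 (1.23-fold and 0.635-fold) and ETV5 (1.62-fold and 0.834-fold). DUSP6 (0.956-fold and 1.12-fold) and CCND1 (0.896-fold and 1.15-fold) also did, by less. The same order in both lines was found for 3 members with KO 2 higher (25.2% of genes) and 1 with KO 2 lower (23.9%), shares near the background. Of the 3, ETV4 was all but tied in CMM12, at 58.1 CPM in both KO libraries.

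Around the members, other genes of the pathway were counted from lists chosen with earlier results of these data known, and edgeR called no gene of these lists for KO against control in either line. DESeq2 called ERRFI1 and CDKN1A in CMM12, and RPS6KA2 for the difference of the KO effects. Over all tested genes, 52.1% had a positive change in CMM12 and 50.1% in CMM2, with medians of 0.02 and 0.00, and no test compared the lists with other genes. Of 22 tested further ERK output genes, 17 had a positive log2 change in CMM12 and 8 in CMM2, with medians of 0.57 and −0.08. ERRFI1, a feedback inhibitor of the EGF receptor, stood at 525 CPM in the CMM12 control and 999 and 948 in its KO libraries (0.89, SE 0.25, DESeq2 adjusted p 0.0165). TRIB1, a pseudokinase that holds MEK and an ubiquitin ligase, was at 45.0 CPM in the CMM12 control and 79.0 and 133 in KO (1.24, SE 0.40). The spread in CMM2 was narrow, where ERRFI1 was at 732 to 759 CPM and TRIB1 at 26.7 to 35.5 CPM. In CMM2 the smallest p-values of that list were those of the chemokine CXCL8, at 52.0 CPM in the control and 19.5 and 5.39 in KO (−2.06, SE 0.86), and of EGR1, an immediate early transcription factor, at 2.67, 6.82 and 10.9 CPM (1.72, SE 0.78). EGR1 was at 7.68, 17.2 and 53.3 CPM in CMM12, so the control was lowest in each line, whereas CXCL8 was at 12.2, 28.9 and 105 CPM in CMM12 and had its control highest in CMM2 and lowest in CMM12.

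Of 28 tested genes of the cascade, from adaptors and RAS to ERK and the kinases and ELK factors that ERK phosphorylates, 15 had a positive change in CMM12 and 17 in CMM2, with medians of 0.03 and 0.13. A pair of kinases downstream of ERK had the smallest p-values in CMM12. RPS6KA2, a ribosomal S6 kinase, was at 69.0 CPM in the CMM12 control and 23.8 and 34.8 in KO (−1.24, SE 0.35), and at 23.2, 45.4 and 65.5 CPM in CMM2 (1.26, SE 0.39). The difference of these changes was −2.49 (SE 0.52), with an adjusted p of 1 by edgeR and 0.047 by DESeq2. MKNK2, which phosphorylates the translation factor eIF4E, was at 15.1 CPM in the CMM12 control and 38.7 and 32.1 in KO (1.23, SE 0.36). In CMM2 the second of the list was the adaptor SHC1 (0.43, SE 0.24). The 16 tested negative regulators outside the members had a median of −0.09 in CMM12 (7 positive) and 0.28 in CMM2 (13 positive). Their smallest p-values were those of RASA1, a GTPase-activating protein of RAS, and its relative RASAL2 in CMM12 (−0.67, SE 0.28, and −0.58, SE 0.36). In CMM2 RASA3, of the same class, had one of the smallest p-values of the list (0.85, SE 0.36).

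Upstream, the 14 tested receptor tyrosine kinases had medians of 0.15 in CMM12 and 0.45 in CMM2, and the 11 tested ligands 0.92 and −0.13. HGF, the ligand of MET, was at 6.99 CPM in the CMM12 control and 19.4 and 29.6 in KO (1.81, SE 0.43). NRG1, a ligand of ERBB3 and ERBB4, was at 198 CPM in the CMM12 control and 111 and 106 in KO (−0.87, SE 0.24). MERTK, a receptor of the TAM family, was at 29.6 CPM in the CMM12 control and 11.8 and 7.44 in KO (−1.62, SE 0.48) and had 0 to 3 counts in CMM2. PDGFRB followed in CMM12 (1.40, SE 0.77). In CMM2 the insulin receptor INSR (2.17, SE 0.99) and the ligand PDGFC (0.76, SE 0.33) had among the smallest p-values, as did FGF7, which had 19 counts in KO 2 and 0 in the other CMM2 libraries. Around cyclin D1, 9 of 14 tested G1 genes had a positive change in CMM12 and 9 in CMM2, with medians of 0.27 and 0.22. CDKN1A, the inhibitor p21, was at 2.59 CPM in the CMM12 control and 11.7 and 14.2 in KO, and was the G1 gene that DESeq2 called in CMM12 (log2 2.31, SE 0.34 by edgeR, DESeq2 adjusted p 0.000276). In CMM2 it was at 58.1, 91.1 and 83.5 CPM (0.59, SE 0.28). The other G1 genes with the smallest p-values were the CDK inhibitors CDKN2D in CMM12 (1.10, SE 0.36) and CDKN2C in CMM2 (0.64, SE 0.26).

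**Figure D4:**
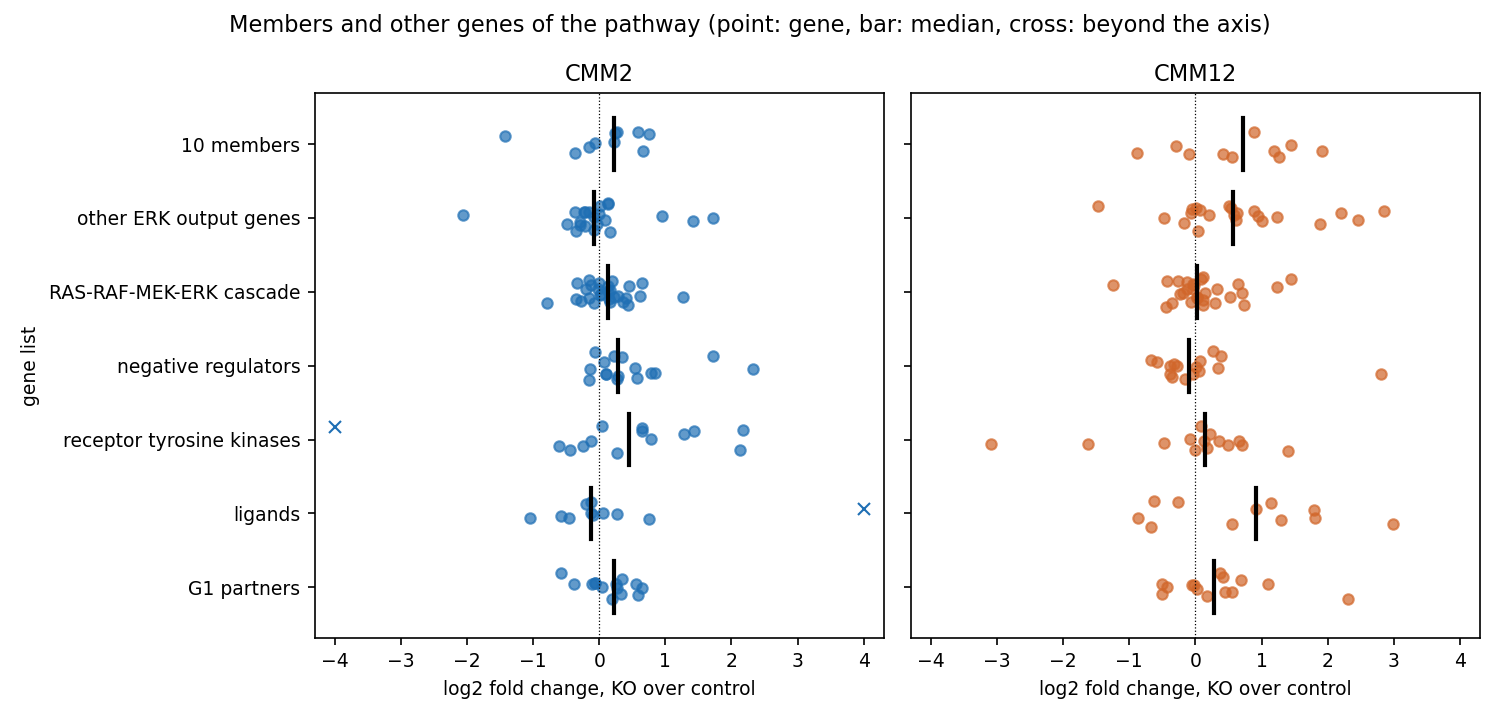
Log2 fold change of KO over control (horizontal axis) in CMM2 (left) and CMM12 (right) for the members and for 6 lists of other pathway genes (rows), 1 point per tested gene, a bar at the median and crosses for values beyond the axis. The medians of the members (0.73), of other ERK output genes (0.57) and of ligands (0.92) lie right of 0 in CMM12, and those of the cascade lie near 0 in both lines.

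Between the lines the same lists held more calls than for KO, as did all tested genes (25.8% called by edgeR). Of the 22 further ERK output genes, 8 were called higher and 3 lower in CMM12 by edgeR, against 14.6% and 11.2% of all genes. DUSP8, another phosphatase of this family, was at 0.382 to 1.22 CPM in CMM2 and 6.11 to 8.54 in CMM12 (log2 3.09, SE 0.51, edgeR adjusted p 0.00632). SPRED2, the paralogue of SPRED1, was higher in CMM2, at 77.2 to 89.7 CPM against 39.4 to 46.0 (−0.92, SE 0.16, edgeR adjusted p 0.00724). CMM2 thus had SPRED2 but hardly any SPRED1 messenger, while CMM12 had both. MYC was at 93.4 to 107 CPM in CMM2 and 167 to 189 in CMM12 (0.81, SE 0.15, edgeR adjusted p 0.00859), and KCNN4, a potassium channel, at 59.3 to 75.7 and 113 to 119 CPM (0.80, SE 0.15, edgeR adjusted p 0.00978).

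In the cascade, 3 of 28 genes were called higher and 0 lower in CMM12, where 14.6% and 11.2% of all tested genes were. These shares are also the background for the counts of the other lists below. The cascade counts do not exceed them, and no test compared the lists with all genes. GAB1, a docking protein of receptor signalling, had at most 0.961 CPM in CMM2 and 23.8 to 26.4 CPM in CMM12 (log2 5.34, SE 0.67, edgeR adjusted p 0.00246), a pattern of the same kind as that of SPRED1. The others were RPS6KA3, a ribosomal S6 kinase (0.91, SE 0.25), and SOS2, an exchange factor of RAS (0.81, SE 0.23). PEA15, which holds ERK in the cytoplasm, was at 38.4 to 42.0 and 171 to 229 CPM (2.31, SE 0.17, edgeR adjusted p 0.000497) and was 1 of 2 called negative regulators of 16, the other being RASAL2 (1.13, SE 0.34). Receptors were called in both directions, 2 higher and 4 lower of 14. MERTK, at 7.44 to 29.6 CPM in CMM12, and FGFR3 (2.93, SE 0.50) were higher in CMM12, and IGF1R (−1.93, SE 0.23) and AXL (−1.01, SE 0.21) were lower, with edgeR adjusted p-values of 0.000745, 0.00697, 0.00213 and 0.013. Of 11 ligands 3 were called higher, HBEGF (2.08, SE 0.24, edgeR adjusted p 0.00187), FGF5 (1.03, SE 0.28) and FGF7, and 1 lower, KITLG (−0.99, SE 0.29, edgeR adjusted p 0.0426). Of 14 G1 genes 2 were higher, among them CCNE1 (1.07, SE 0.16), and 4 lower, among them CDKN1A (−3.25, SE 0.36) and RB1 (−1.50, SE 0.25). CDK4, the catalytic partner of cyclin D1, was at 443 to 513 CPM in CMM2 and 247 to 263 in CMM12 (−0.92, SE 0.15, edgeR adjusted p 0.00574), while CCND1 was not called.

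The profiles most like those of 3 members were looked up over the 6 libraries after the mean of each line was subtracted, among 8023 other genes whose mean CPM was at least 10. For DUSP6 the highest Pearson r, 0.997, was that of BCAS3 (Spearman's rho 1), followed by CD55 and MBD3 (r 0.993 each, rho 0.94 each). For SPRY4 RMND5B and MTSS1 were among the most similar (r 1 and 0.996, rho 1 each), and for CCND1 the highest were CISD3, ARPIN and FAM13B (r 0.994 to 0.995, rho 0.94 to 1). These values describe 6 points that share 2 controls, and 181 to 220 genes had an r over 0.9 with each of the 3 members. The size of the changes differed widely among them. In CMM12 KO 1 and KO 2 the log2 ratio to the control was 1.02 and 1.15 for BCAS3 and 0.25 and 0.32 for MBD3, against 1.37 and 1.53 for DUSP6.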

How the data were processed

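The 6 libraries were made with a NEBNext Ultra kit, per the labels' protocols. The submitters' processing notes name CanFam3.1 as the build and list RSEM 1.3.3 and STAR 2.7.3a. Strand setting and annotation version are not given in the sources used here. Antisense genes or near-identical copies cannot therefore be told apart. The authors deposited expected counts (unscaled) and TPM for each gene, per the file headers. Counts were rounded, which changed 3.22% to 3.63% of values per library (ETV4 is a member with fractional counts). Where a symbol has several rows the one with the highest mean count was taken.

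edgeR 4.0.16 in R 4.3.3 (TMM, filterByExpr, glmQLFit and glmQLFTest) was fitted to 12270 genes, with Benjamini-Hochberg adjustment at 0.05 over all of them. The KO effect across lines and the line contrast came from a model of line plus genotype, with 3 residual degrees of freedom. KO within a line used 4 group means, and KO numbers a model of line and number (2 each). The lone control of a line is there assumed to vary like the KO pairs. SEs follow from the quasi-likelihood F. Alternatives included DESeq2 1.42.0. Its adjusted p was NA for 1190 genes for KO in CMM12 and 1903 for KO numbers, and these count as not called in its shares. The others were other scaling, filters and spread estimates, limma 3.58.1 on log2(TPM + 1) and log2(TPM + 0.1), a block, KO libraries alone, and each library left out. Such log values understate changes of low genes. Exact binomial 95% intervals of ratios cover counting error only, and 3 counts correspond to 0.259 to 0.294 CPM.

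Members and lists were chosen with earlier results of these data known. Named are all members, PDPN, and of each list up to 4 genes called between lines or, where none was called, up to 2 with the smallest p in the comparison described, and for DUSP6, SPRY4 and CCND1 the 3 most similar profiles. A few items that this rule names are not reported here. CDKN1A and EGR1 are given in both lines. SPRED2 was set beside SPRED1 after its values were seen.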

Additional observations from a re-analysis of the deposited data

Results flagged for a closer look

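DUSP5 and DUSP6 stood out because both KO libraries of CMM12 lay above their control and both KO libraries of CMM2 below theirs. For DUSP6 the CMM2 side was not resolved. Its counting intervals for the ratio to the control were 0.817 to 1.05 in KO 1 and 0.778 to 1 in KO 2. Those of DUSP5 in CMM2 lay below 1, at 0.719 to 0.931 and 0.631 to 0.83. Such intervals cover counting error only and not the scatter between libraries. The fitted log2 change of DUSP5 in CMM2 was −0.37 (SE 0.29), so its CMM2 side is not settled either. The log2 KO change of CMM12 minus that of CMM2 was 1.63 (SE 0.42) for DUSP5 and 1.60 (SE 0.34) for DUSP6. In the fit over all genes edgeR called 0 genes for this difference after adjustment, and these genes were chosen with the contrast in view, so the values are a description. That arrangement of the 4 KO libraries held for 11% of all tested genes. Each line's direction rests on 1 control library.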

How the results depend on the processing

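The direction of 39 of 40 ratios of a KO library to its control was the same with TPM as with CPM, and all 40 with median-of-ratios factors. Between the lines, limma on log2(TPM + 1) moved the median log2 change of all genes by 0.11 from that of edgeR. The gene set, pseudocount and model of that fit also differ, so the shift is not that of TPM scaling alone. With a replicate block, in which the control, KO 1 and KO 2 pair the lines, 3 members and 2959 genes were called between the lines and the members' median was 0.48, against 3, 3170 and 0.44. The numbers are not known to pair the libraries: KO 2 minus KO 1 correlated at 0.052 between the lines across 8660 genes. Genes called for KO across lines, 0 by edgeR, were 9 by DESeq2, 15 without the count filter and 3 or 2 by limma on log2(TPM + 1) or log2(TPM + 0.1). In CMM2 they were 6 by DESeq2 and 1 without the filter. In CMM12, against 1, they were 45 by DESeq2, 26 without the filter, 4 with the bias-adjusted spread, 0 by limma at either pseudocount and 75 by limma without a filter. DESeq2 called 1 member there. The members' median in CMM12 was 0.71 without the filter, 0.66 on log2(TPM + 1), with or without a filter, and 0.67 on log2(TPM + 0.1). For the difference between lines the calls were 22 by DESeq2 and 2 without the filter, and for KO numbers 27 and 4, where the members' median was 0.18 on log2(TPM + 1), with or without a filter, against 0.09. KO libraries alone gave 1884 genes called between the lines. Leaving out 1 library gave 0 to 1 genes called across lines, 0 to 1 in CMM2, 0 to 14 in CMM12 (14 without CMM12 KO 2, 5 without CMM12 KO 1, 0 without any CMM2 library), 0 to 1 for the difference, 1499 to 3096 between lines (1499 without CMM2 KO 1, 1680 and 1717 without the CMM2 or CMM12 control, 1690 without CMM12 KO 2) and 0 to 58 for KO numbers (58 without CMM12 KO 2). Members called between lines were 2 to 4. The members' median then ran from 0.23 to 0.73 across lines (0.73 without the CMM2 control), −0.06 to 0.23 in CMM2, 0.68 to 0.73 in CMM12 and −0.07 to 0.37 for KO numbers. CCND1 between lines ran from −0.01 (without CMM12 KO 2) to 0.31. For KO numbers the sign turned for DUSP4 (−2.13 to 0.90), DUSP5 (−0.64 to 0.26), DUSP6 (−0.48 to 0.50), SPRED1 (−0.87 to 0.66), ETV1 (−0.68 to 0.32), ETV4 (−0.09 to 0.62), ETV5 (−0.20 to 0.64) and CCND1 (−0.27 to 0.32). The cause was not tested. With 1 control per line, no KO effect of a line could be fitted without that control.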
